A study of Mus musculus with 6 samples.

Results

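The 10 genes described here write, read and erase DNA methylation: the methyltransferase genes *Dnmt1*, *Dnmt3a* and *Dnmt3b*, the cofactor gene *Dnmt3l*, *Uhrf1*, the dioxygenase genes *Tet1*, *Tet2* and *Tet3*, the glycosylase gene *Tdg*, and *Zfp57*. They were taken from the count table by symbol, and each matched 1 gene identifier among the 37620 there. All 10 passed the filter on low counts, which left 16023 genes to test.

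RNA with a polyA tail was measured by RNA-seq in E14 mouse embryonic stem cells (ESCs) of strain 129/Ola, in 3 wild-type (WT) libraries and 3 *Ube2d3*-S138A libraries. UBE2D3 is an E2 enzyme that passes ubiquitin on to E3 ligases, and S138A replaces a serine near its C-terminal end with alanine. Both groups were undifferentiated and grew in serum at a single time. The study isolated S138A ESCs as clones after CRISPR/Cas9 editing and used a mutant clone for functional work, so the mutation and the history of a clone cannot be told apart, and revertant cells were not analysed here. The S138A libraries are called A, B and C because their columns carry no replicate label. Nothing in the sources used here says whether libraries came from separate cultures. So p-values measure the spread between these libraries, or what a fit leaves of it, and this may be technical.

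In mammals DNA methylation sits mostly on the cytosine of CpG dinucleotides. The DNMT3 enzymes place it on unmethylated DNA, and DNMT1 copies it to the daughter strand at replication, guided by UHRF1, which binds hemimethylated CpG. TET enzymes oxidise methylcytosine to hydroxymethylcytosine and further products, the last of which TDG cuts out for repair. ZFP57 binds a methylated motif in imprinting control regions and protects their methylation in the early embryo and in ESCs. ESCs transcribe *Tet1* and *Tet2* strongly, and ESCs grown in serum hold more DNA methylation than ESCs grown with inhibitors of differentiation.

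The libraries held 33227593 to 37169770 counts. The first principal component, with 57.2% of the variance, set WT 3 and S138A C against the remaining 4 libraries and did not follow genotype. Squared differences between libraries were a median 2.41 times the sampling noise for WT 1 and WT 2, against 32 times for WT 1 and WT 3. They were 3.45 times the noise for S138A A and B, and 46.6 times for A and C. All 10 ESC markers examined, among them *Pou5f1*, *Sox2* and *Nanog*, were detected in all libraries, with a summed level of 7501 to 8015 CPM, the count scaled to library size and corrected by TMM factors for differences in composition. With the replicate block, explained in the next paragraph, 1 of these markers, *Zfp42*, was called lower and 0 higher. *Ube2d3* itself read 472.9, 459.1 and 304.3 CPM in WT and 491, 429.3 and 265 CPM in S138A, a log2 fold change of -0.06 that did not pass the test (adjusted p = 0.945, edgeR). A change of codon need not alter the RNA level, so this value does not check the labels.

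Because of those libraries each genotype difference is given in several fits of edgeR's quasi-likelihood test, with p-values adjusted by Benjamini-Hochberg over all genes tested. The simplest fit has genotype alone and called 0 of 16023 genes (0%) at an adjusted p under 0.05, while 2270 (14.2%) had an unadjusted p under 0.05. A second fit adds the replicate block, in which WT 1 is set beside S138A A, WT 2 beside B and WT 3 beside C by the final digit of the column names. It called 3180 genes (19.8%), of which 1717 (10.7%) were higher and 1463 (9.13%) were lower in S138A. Another fit replaces the block with a term that marks WT 3 and S138A C, and called 4418 genes (27.6%). Over the 4 libraries without WT 3 and S138A C, 4756 of 16055 genes (29.6%) were called. With the block, the term or 4 libraries, p-values measure only the spread left once the difference of WT 3 and S138A C is modelled or dropped. That difference was seen in the data before it was treated so, and the pairing is inferred. DESeq2 with genotype alone called 797 of 14775 genes (5.39%), and limma-voom called 0 (2199 at an unadjusted p under 0.05).

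Of the 10 methylation genes, 0 were called in the fit with genotype alone, and 1, *Tet3*, had an unadjusted p under 0.05. With the replicate block 2 of the 10 were called, *Tet3* higher by 1.37-fold and *Dnmt3b* lower, at 0.783 times WT. A share of 2 in 10 is close to the 19.8% of all genes tested. In the other 4 libraries alone 3 of the 10 were called, *Tet1* being the one added. DESeq2 called 0 of the 10. The median log2 fold change of the 10 genes was -0.01, beside 0.02 for all genes tested. The 3 S138A libraries lay wholly above the 3 WT libraries for 2 genes, *Dnmt1* and *Tet3*, and wholly below them for 0 genes, where the shares over all genes tested were 11.3% above and 10.9% below.

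**Figure D1:**
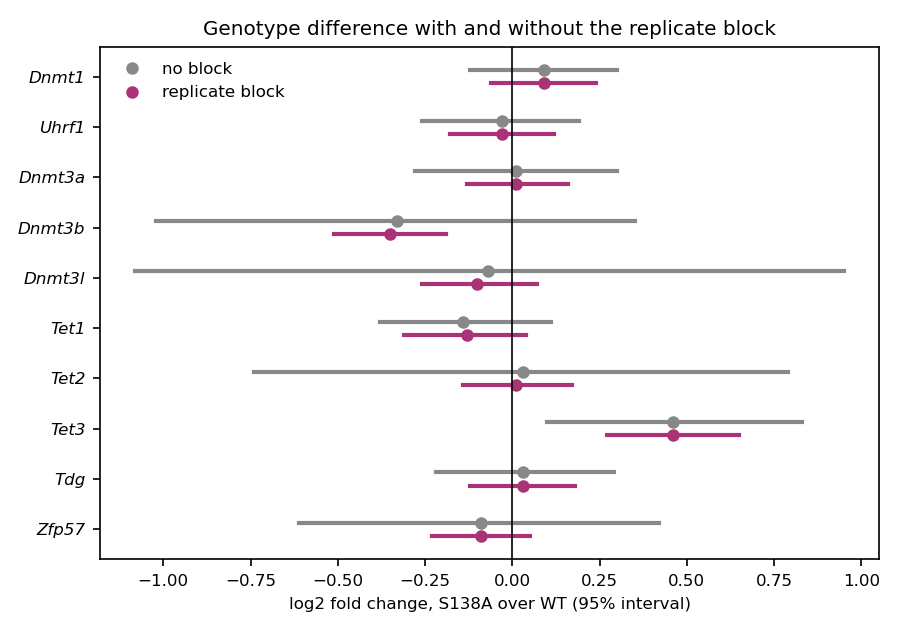
Log2 fold change of S138A over WT for the 10 genes, with 95% intervals, from edgeR with genotype alone (grey) and with the replicate block (purple). With the block the intervals of *Dnmt3b* (-0.51 to -0.19) and *Tet3* (0.27 to 0.65) lie on 1 side of 0, and the intervals of *Dnmt3b*, *Dnmt3l*, *Tet2* and *Zfp57* are the ones that narrow most.

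The promoters of the 2 genes called with the block are shown because those are the genes whose RNA separated by genotype in that fit. Each line holds the 250 bases before the gene's RefSeq start in GRCm38.p6, read 5′ to 3′ on the gene's strand, with CpG dinucleotides, the target of the enzymes themselves, in capitals. The first is chr2:153649199-153649448 on the plus strand and the second is chr6:83441679-83441928 on the minus strand.
Dnmt3b: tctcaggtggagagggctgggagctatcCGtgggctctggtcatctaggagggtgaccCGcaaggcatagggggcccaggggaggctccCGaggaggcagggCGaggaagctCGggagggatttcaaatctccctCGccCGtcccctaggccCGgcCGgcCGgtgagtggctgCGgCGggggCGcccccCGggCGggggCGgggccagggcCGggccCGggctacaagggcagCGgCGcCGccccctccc
Tet3: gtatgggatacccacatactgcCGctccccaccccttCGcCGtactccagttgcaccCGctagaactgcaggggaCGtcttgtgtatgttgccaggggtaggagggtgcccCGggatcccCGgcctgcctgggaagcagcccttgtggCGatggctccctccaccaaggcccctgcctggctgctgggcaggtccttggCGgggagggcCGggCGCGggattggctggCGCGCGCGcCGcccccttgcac
The *Dnmt3b* window holds 21 CpG, more than 83.6% of 32841 windows of this length, and is 75.2% G and C. The *Tet3* window holds 17 CpG, more than 76.5% of windows, and is 69.6% G and C, whereas the median window holds 6 CpG. On both strands, the *Dnmt3b* window has 3 GC boxes (GGGCGG, in 32.7% of windows) and 0 CCAAT boxes (CCAAT, in 33.9%). The *Tet3* window has 1 of each. The 10 genes have 19 annotated starts, of which 13 hold more CpG than the median window, some by little. So a start above the median was shared by genes that were called and genes that were not. The annotation of *Tet3* extends upstream of this start, and which start these cells used was not measured.

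*Dnmt1* and *Uhrf1* form the maintenance pair, and neither passed the test in any fit. *Dnmt1*, the maintenance methyltransferase gene (chr9:20907209-20959888, minus strand, GRCm38), read 343, 307.1 and 337.3 CPM in WT 1, 2 and 3. In S138A A, B and C it read 349, 347.5 and 353 CPM. The S138A libraries were all higher than the WT libraries, by a margin set by WT 1, the nearest of the WT libraries. The log2 fold change was 0.09 (SE 0.09, 95% interval -0.12 to 0.3, adjusted p = 0.697, edgeR), and with the block the adjusted p was 0.356.

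*Uhrf1*, whose product recruits DNMT1 to hemimethylated CpG (chr17:56303321-56323486, plus strand), read 423, 456.3 and 399.3 CPM in WT. It read 436.4, 417.6 and 397 CPM in S138A, so the groups overlapped. Its log2 fold change was -0.03 (SE 0.09, interval -0.26 to 0.19, adjusted p = 0.913, edgeR). The ratio of *Uhrf1* to *Dnmt1* counts within a library, which does not depend on scaling between libraries, was 1.23, 1.49 and 1.18 in WT and 1.25, 1.2 and 1.12 in S138A. These overlapped too (exact permutation test, two-sided p = 0.5, where 3 against 3 cannot go below 0.1).

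Among the de novo writers *Dnmt3a* did not pass the test in any fit and *Dnmt3b* was lower in S138A within each pair of libraries. *Dnmt3a* (chr12:3806007-3914443, plus strand) encodes a de novo methyltransferase active in ESCs and in many adult tissues. It read 229.3, 229.7 and 191.8 CPM in WT and 235, 227.5 and 193.6 CPM in S138A. Each S138A value was close to that of the WT library set beside it in the block, and the log2 fold change was 0.01 (SE 0.12, interval -0.28 to 0.3, adjusted p = 0.979, edgeR).

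*Dnmt3b* (chr2:153649450-153687730, plus strand) encodes the other de novo methyltransferase, which acts on gene bodies and on pericentromeric repeats and is prominent in the early epiblast. It read 302.1, 316.4 and 188.8 CPM in WT (269.1 ± 69.9, SD, n = 3) and 244.5, 258.9 and 136.8 CPM in S138A (213.4 ± 66.7, n = 3). WT 3 was lower than S138A A and B, so the groups overlapped, and the low library of each group was WT 3 or S138A C. With genotype alone the log2 fold change was -0.33 (SE 0.29, interval -1.02 to 0.35, adjusted p = 0.648, edgeR).

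With the replicate block the value was -0.35 with an SE of 0.07 (adjusted p = 0.0163), and with the term for WT 3 and S138A C it was -0.35 (adjusted p = 0.00583). Within the pairs the log2 ratios were -0.31, -0.29 and -0.47, so *Dnmt3b* was lower in S138A in 3 of 3 pairs. In the 4 libraries without WT 3 and S138A C the log2 fold change was -0.3 (adjusted p = 0.00838), and the 2 S138A libraries both lay below the 2 WT libraries. With genotype alone the value moved to -0.1 without S138A C and to -0.54 without WT 3, neither of them called (adjusted p = 0.842 and 0.359). The call depended on accounting for WT 3 and S138A C.

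*Dnmt3l* (chr10:78041947-78063622, plus strand) encodes a cofactor without catalytic activity that stimulates DNMT3A and DNMT3B. It read 401.3, 406.4 and 182.8 CPM in WT and 389.4, 402 and 155.1 CPM in S138A. The third library of each group was far below the other two, and the log2 fold change between genotypes was -0.07 (SE 0.43, interval -1.08 to 0.95, adjusted p = 0.965, edgeR). With the block the interval narrowed to -0.26 to 0.07 (adjusted p = 0.354).

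The ratio of *Dnmt3b* to *Dnmt3a* counts was 1.32, 1.38 and 0.984 in WT and 1.04, 1.14 and 0.706 in S138A, a log2 difference of -0.36 that came to -0.16 without S138A C and -0.52 without WT 3. The groups overlapped (exact permutation test, two-sided p = 0.3, adjusted p = 0.6 over 6 ratios), and the ratio was lower in S138A in 3 of 3 pairs. The ratio of *Dnmt3l* to *Dnmt3a* differed by -0.11 on the log2 scale (exact permutation p = 0.6). Of the counts for these 4 writer genes together, *Dnmt3b* made up 23.7%, 25.1% and 21% in WT and 20.1%, 20.9% and 16.3% in S138A. WT 3 (21%) and S138A B (20.9%) were nearly equal, so its share did not clearly separate the groups. The share also depends on *Dnmt3l*, which was low in WT 3 and S138A C.

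**Figure D2:**
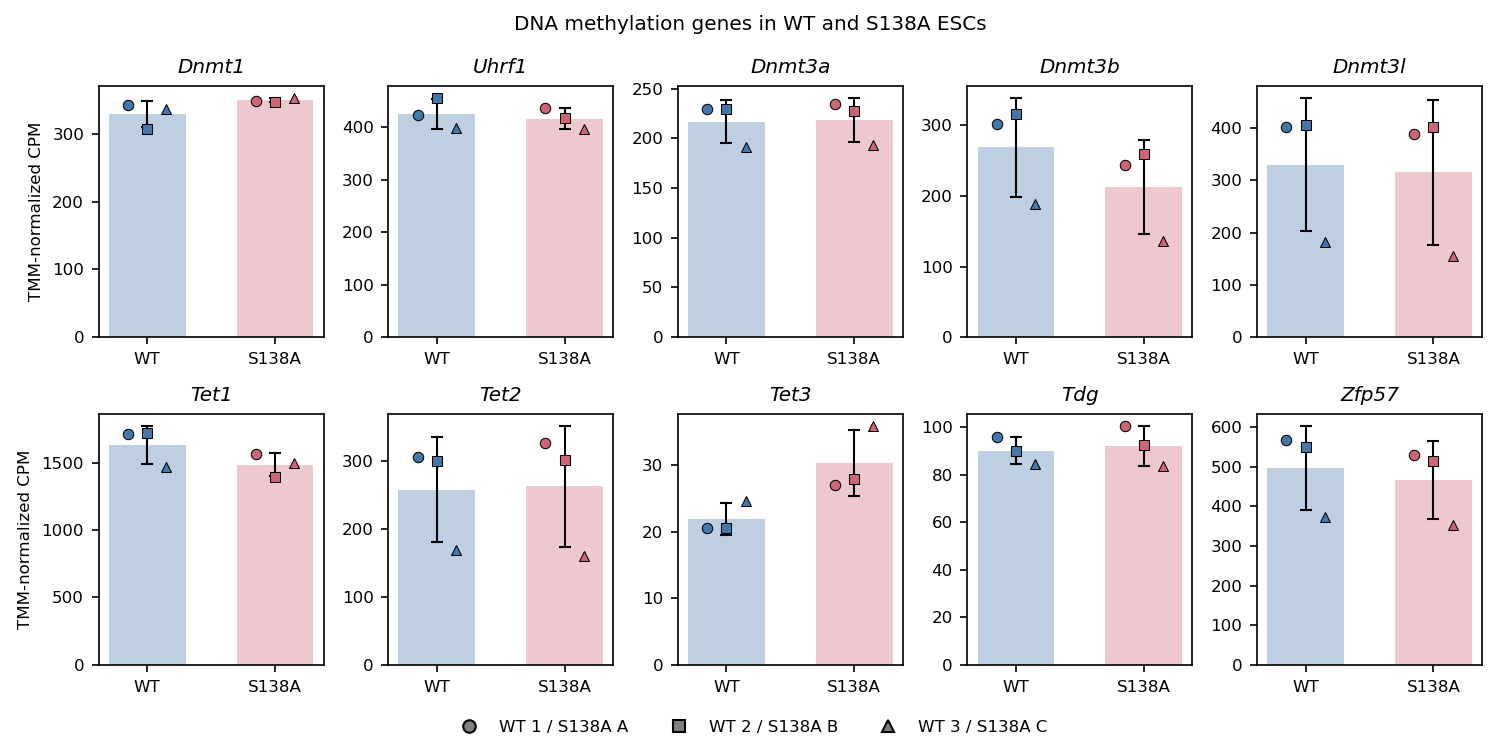
TMM-normalized CPM of the 10 genes in each library (points; circles WT 1 and S138A A, squares WT 2 and S138A B, triangles WT 3 and S138A C), with the group mean (bars, starting at 0) and SD (error bars, n = 3). The *Tet3* points of S138A (27 to 35.9) lie above those of WT (20.5 to 24.6), and the triangles are the low points of *Dnmt3b*, *Dnmt3l*, *Tet2* and *Zfp57* in both groups.

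Among the erasers *Tet1* was the most and *Tet3* the least abundant, and *Tet3* was the one called higher with the block. *Tet1* (chr10:62804570-62908996, minus strand), the main TET gene of ESCs, read 1711, 1716 and 1468 CPM in WT and 1561, 1396 and 1498 CPM in S138A. The groups overlapped because WT 3 was lower than S138A A and C. The log2 fold change was -0.14 (SE 0.1, interval -0.38 to 0.11, adjusted p = 0.604, edgeR) and -0.13 with the block (adjusted p = 0.243). Without WT 3 and S138A C it was -0.22 (adjusted p = 0.0322), and the pair of WT 3 and S138A C gave 0.03, so this call was seen only in those 4 libraries.

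*Tet2* (chr3:133463679-133545139, minus strand), which encodes a TET enzyme without a CXXC domain, read 305.9, 300.3 and 169.1 CPM in WT and 327.2, 301.4 and 161 CPM in S138A. The third library was again the low one of each group. The log2 fold change was 0.03 (SE 0.32, interval -0.74 to 0.79, adjusted p = 0.982, edgeR), and 0.01 with the block (interval -0.14 to 0.17, adjusted p = 0.921).

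*Tet3* (chr6:83362373-83459084, minus strand) encodes the TET enzyme of the oocyte and zygote and was the lowest of the 10 genes. It had 681, 649 and 940 counts in WT and 933, 1025 and 1331 counts in S138A, or 20.6, 20.5 and 24.6 CPM against 27, 27.9 and 35.9 CPM. Every S138A library was above every WT library, and WT 3 and S138A C were the highest of their groups. The log2 fold change was 0.46 (SE 0.16, interval 0.1 to 0.83), with an unadjusted p = 0.0203 and an adjusted p = 0.27 (edgeR).

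With the replicate block the *Tet3* value was again 0.46, with an SE of 0.08 (adjusted p = 0.0137), and with the term for WT 3 and S138A C the adjusted p was 0.00388. The log2 ratios within the pairs were 0.39, 0.44 and 0.54. Without WT 3 and S138A C the value was 0.41 (adjusted p = 0.00607), and DESeq2 with genotype alone gave an adjusted p = 0.121. *Tet3* made up 1.01%, 1.01% and 1.48% of all TET counts in WT and 1.41%, 1.61% and 2.12% in S138A, while *Tet1* made up between 80.9% and 88.4% in the 6 libraries.

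*Tdg* (chr10:82629828-82650799, plus strand), which encodes the glycosylase that removes the oxidised forms of methylcytosine, read 96, 90 and 84.4 CPM in WT and 100.3, 92.6 and 83.6 CPM in S138A. The log2 fold change was 0.03 (SE 0.11, interval -0.22 to 0.29, adjusted p = 0.922, edgeR). A processed copy, *Tdg-ps*, had 655 to 998 counts, and how reads shared with *Tdg* were assigned is not given, so the level of *Tdg* is less certain than those of the other genes. The ratio of *Tet1* to *Tet2* was 5.59, 5.72 and 8.68 in WT and 4.77, 4.63 and 9.3 in S138A, being high in the third library of each group (exact permutation p = 0.6). *Tet1* to *Dnmt1*, an eraser over a maintenance writer, was 4.99, 5.59 and 4.35 in WT and 4.47, 4.02 and 4.24 in S138A, a log2 difference of -0.22 (exact permutation p = 0.2). The ratio of *Tdg* to *Tet1* differed by 0.16 (exact permutation p = 0.3), and all 6 ratios had an adjusted p of 0.6.

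*Zfp57* (chr17:37001163-37010635, plus strand), the imprint-protecting reader, read 567, 549.6 and 374 CPM in WT and 529.1, 515.7 and 352.1 CPM in S138A. The groups overlapped, with the third library low in each. The log2 ratios within the pairs were -0.1, -0.09 and -0.09, the most even of the 10 genes, and the fit with genotype alone gave -0.09 (SE 0.22, interval -0.61 to 0.42, adjusted p = 0.877, edgeR). With the block the value was still -0.09 (interval -0.23 to 0.05, adjusted p = 0.302).

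The difference between WT 3 and S138A C and the other libraries was larger than the genotype difference for most of these genes, and it is given as a description without a test, since those libraries were picked out from the data. In WT 3 *Dnmt3l* was at 0.453 times the mean of WT 1 and WT 2, and in S138A C at 0.392 times the mean of A and B. *Tet2* was at 0.558 and 0.512 times, and *Dnmt3b* at 0.61 and 0.543 times. *Zfp57* was at 0.67 and 0.674 times.

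*Dnmt3a* was at 0.836 and 0.837 times, *Dnmt1* at 1.04 and 1.01 times and *Uhrf1* at 0.908 and 0.93 times. *Tdg* was at 0.908 and 0.866 times and *Tet1* at 0.857 and 1.01 times. *Tet3* went the other way, at 1.2 and 1.31 times. WT 3 and S138A C were the lowest of their groups for 7 of the 10 genes and the highest for 1, *Tet3*. Over all genes tested these shares were 33.8% and 34%.

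**Figure D3:**
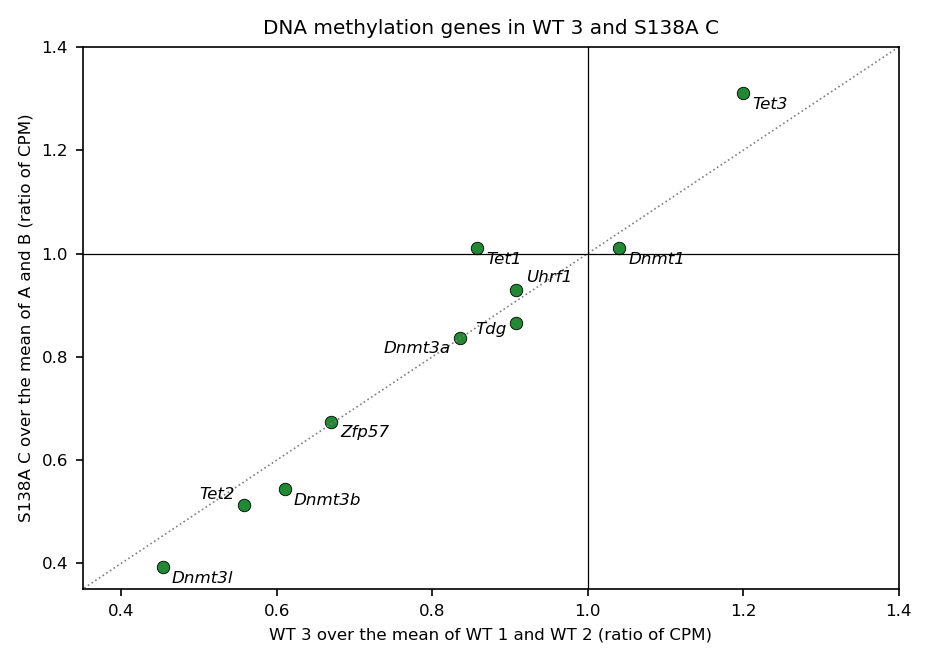
CPM of WT 3 over the mean of WT 1 and WT 2 (x axis) against CPM of S138A C over the mean of S138A A and B (y axis) for the 10 genes, with solid lines at 1 and a dotted line where both ratios are equal. *Dnmt3l*, *Tet2*, *Dnmt3b* and *Zfp57* lie lowest on both axes (0.392 to 0.674), *Dnmt1* lies near 1 and *Tet3* lies above 1 on both.

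Markers of cell state were read beside this pattern. The summed level of 9 formative and primed genes, which mark the step towards the epiblast, was 386.5, 423.6 and 229.7 CPM in WT and 398.7, 378.1 and 191.1 CPM in S138A, lower in the same libraries, with *Pou3f1* at 0 in all 6. With the block 3 of the 8 tested rose and 1 fell. That of 10 naive genes was 3447, 3431 and 3651 CPM in WT and 3638, 3421 and 3323 CPM in S138A, with 3 higher and 1 lower by the block. Of a list of 10 two-cell-like genes, 5 were in the table. They summed to 57.9, 60.7 and 29.1 CPM in WT and 155, 160.5 and 39.4 CPM in S138A. By the block 5 of 5 were higher, but edgeR with genotype alone called 0 and the groups overlapped for each. DESeq2 with genotype alone called 1 of them higher. They include related *Zscan4* genes, and how reads shared between those were assigned is not given, so they are not separate observations. Over all genes tested 10.7% were higher and 9.13% lower by the block. The part of cell state in the methylation genes was not tested. A change in the number of cells of a type and a change of RNA per cell cannot be told apart in bulk samples.

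Fibroblast and primitive endoderm markers were examined because serum cultures can hold such cells. The 10 fibroblast genes summed to 564.8 to 643.9 CPM in WT and 637.5 to 859.1 CPM in S138A, mostly *Fn1*, which is not limited to fibroblasts. Of the 7 tested, 3 rose with the block, beside 10.7% of all genes tested. *Dcn* and *Lum*, defining fibroblast genes, were at most 0.158 CPM. The 3 that rose were *Thy1*, *Col3a1* and *Col1a1*. *Thy1* read 11, 11.3 and 11 CPM in WT and 25.3, 26.1 and 16.5 CPM in S138A. *Col3a1* read 0.454, 0.633 and 0.524 CPM in WT and 1.74, 2.31 and 0.917 CPM in S138A. The collagen gene *Col1a1* read 21.1, 20.5 and 36.1 CPM in WT and 68.8, 75 and 37.9 CPM in S138A. In all 3, S138A C was the lowest of its group. Another collagen gene, *Col1a2*, was not called (8.63, 7.72 and 16.2 CPM in WT, 7.16, 7.8 and 12.3 CPM in S138A). The 7 primitive endoderm genes summed to 17.8 to 21.7 CPM in WT and 20.9 to 27.8 CPM in S138A, and 0 of 7 were called. The highest fibroblast and endoderm sums were both in S138A C, and the fibroblast sums of S138A A and B (637.5 and 657.8 CPM) were also above those of WT 1 and WT 2 (564.8 and 569.5 CPM). Each of the sums in S138A C was mostly that of a single gene, *Fn1* at 779.7 CPM and the endoderm gene *Dab2* at 17.5 CPM. The sums therefore do not rank the libraries by either cell type. The part of such cells in the values of *Tet3* and the other genes was not tested.

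Levels of different genes were compared per kilobase of merged exons (GENCODE M21, GRCm38). In WT *Zfp57* was highest at 131.2 ± 28.2 CPM per kilobase (SD, n = 3), followed by *Dnmt3l* at 110.5 ± 42.7, *Tet1* at 105.6 ± 9.18 and *Uhrf1* at 100.1 ± 6.72. The spreads of these 4 neighbours overlapped. Within each WT library, *Zfp57* (149.8, 145.2 and 98.8) was above *Dnmt3l*, *Tet1* and *Uhrf1*. *Dnmt3l* was at 134.3, 136 and 61.2, so its place depended on the library. *Dnmt3b* at 52.7 ± 13.7 and *Dnmt1* at 44.6 ± 2.62 came next and overlapped each other, a step below *Uhrf1* without overlap.

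A lower tier held *Tdg* at 16.8 ± 1.08, *Tet2* at 15.3 ± 4.59 and *Dnmt3a* at 13 ± 1.31 CPM per kilobase, which overlapped as neighbours. *Tet3* was the lowest at 1.31 ± 0.14, below every other gene in every library. In S138A the order was the same except that *Uhrf1* (97.9) stood above *Tet1* (96.1) and *Dnmt1* (47.4) above *Dnmt3b* (41.8). Neither exchange went beyond the spread of the libraries. Per kilobase of the longest coding transcript, *Uhrf1* (118.9) stood above *Tet1* (113.6) in WT, and *Tet2* (28.2) above *Tdg* (25.7).

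**Figure D4:**
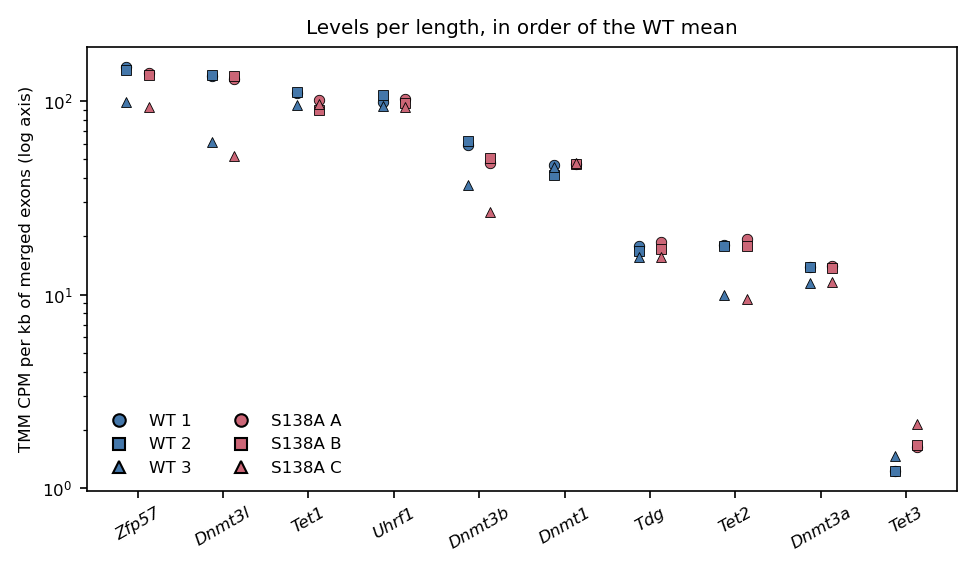
TMM CPM per kilobase of merged exons in each library (log axis), genes in order of the WT mean, WT in blue and S138A in red, with a symbol for each library. *Zfp57*, *Dnmt3l*, *Tet1* and *Uhrf1* form the top tier by mean, though *Dnmt3l* drops to 61.2 in WT 3 and 51.9 in S138A C. *Tet3* lies lowest, at 1.23 to 1.47 in WT and 1.62 to 2.15 in S138A.

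Around these 10 genes, 55 others of the pathway were read from 7 lists: partners of maintenance methylation, chromatin partners of the de novo enzymes, methyl-CpG binding proteins, CXXC proteins of unmethylated CpG, base excision and demethylation repair, TET partners, and partners of ZFP57. All 55 were tested, and edgeR with genotype alone called 0. At an unadjusted p under 0.05 there were 12, beside 14.2% of all genes tested (edgeR). DESeq2 with genotype alone called 5, beside 5.39% of all genes it tested. *Zbtb4* was higher (adjusted p = 0.0196, DESeq2). Lower were *Dppa3* (2.08e-16), *Cbx1* (1.15e-08), *Lig3* (0.00358) and *Cdca7* (0.00749). With the replicate block 4 were called higher and 10 lower, 14 in all, beside the 10.7% and 9.13% of all genes given above. The small counts of each list below stand beside the same shares, and no list was tested as a set. Their median log2 fold change was 0.03, beside 0.02 for all genes tested. Of the 55, 8 lay wholly above and 9 wholly below WT, where the shares over all genes tested were 11.3% and 10.9%.

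Partners of maintenance methylation held the most calls, 4 of 8 lower and 0 higher with the block, with a median of -0.21 in the fit with genotype alone. Over all genes tested 9.13% were lower and 10.7% higher with the block, and the median with genotype alone was 0.02. *Dppa3*, whose product keeps UHRF1 from chromatin and so protects the maternal genome from methylation, read 19.5, 18.3 and 29.7 CPM in WT and 2.81, 2.31 and 4.21 CPM in S138A. It was lower in every S138A library, with a log2 fold change of -2.85 (SE 0.3) that just missed the threshold with genotype alone (adjusted p = 0.0789, edgeR) and passed it with the block (adjusted p = 0.000231). DESeq2 with genotype alone called it without the block (adjusted p = 2.08e-16, DESeq2).

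*Cdca7*, which recruits the remodeller HELLS, read 226.5, 226.6 and 229.1 CPM in WT and 190, 184 and 193.5 CPM in S138A. Its log2 fold change was -0.27 (adjusted p = 0.245, and 0.0273 with the block, edgeR), and its product works with that of *Hells* to open nucleosomal DNA for maintenance. *Pcna*, the replication clamp, was lower by the same amount with the block (log2 fold change -0.27, adjusted p = 0.0296). *Hells*, named here after its values were seen because it completes the count, had -0.32 with the block (adjusted p = 0.0161). So the list holds both an inhibitor of maintenance and 3 genes that serve it, and all 4 fell with the block.

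Among chromatin partners of the de novo enzymes 1 of 8 was lower with the block and 0 higher. This was *Kdm1b*, a histone demethylase gene needed for maternal imprints, at 23.3, 22.2 and 22 CPM in WT and 19.1, 14.7 and 15.9 CPM in S138A (log2 fold change with the block -0.45, adjusted p = 0.0214, edgeR). *Ehmt1* (-0.23, adjusted p = 0.0773 with the block) and *Nsd2* (0.26, adjusted p = 0.0608) did not pass.

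Of 8 methyl-CpG binding genes 2 rose and 1 fell with the block. *Zbtb4*, a zinc finger reader of methylated CpG, read 3.15, 3.73 and 3.85 CPM in WT and 5.53, 5.9 and 8.63 CPM in S138A, a log2 fold change of 0.88 with the block (adjusted p = 0.0132, edgeR). *Mbd1* also rose (0.41, adjusted p = 0.0229). *Zbtb38*, a relative of *Zbtb4*, fell, from 46.7 to 49.1 CPM in WT to 37.3 to 42.3 CPM in S138A (-0.31, adjusted p = 0.039).

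Of 7 CXXC genes 1 rose with the block, *Cxxc5*, at 71.9, 71 and 61.3 CPM in WT and 86.3, 87.9 and 75.9 CPM in S138A (0.29, adjusted p = 0.0246, edgeR). Of 13 repair genes 1 fell, *Lig3*, the ligase gene of base excision repair, at 168.6, 162.4 and 178.5 CPM in WT and 131.3, 132 and 136.9 CPM in S138A (-0.35, adjusted p = 0.0151). *Gadd45a* (0.31, adjusted p = 0.0566) and *Xrcc1* (0.22, adjusted p = 0.0554) did not pass.

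Of 3 TET partners 1 rose and 1 fell with the block. *Qser1*, whose product works with TET1 to keep regulatory DNA unmethylated, read 213.8, 205 and 135.2 CPM in WT and 138.4, 133.1 and 110.5 CPM in S138A (log2 fold change with the block -0.51, adjusted p = 0.0119, edgeR). *Sall4*, a pluripotency gene whose product binds hydroxymethylcytosine, had 0.23 (adjusted p = 0.0481), and *Ogt* had 0.01 (adjusted p = 0.897).

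Of 9 partners of ZFP57 2 fell and 0 rose with the block, both genes of heterochromatin proteins. *Cbx1* read 369.8, 372.8 and 348.1 CPM in WT and 239.7, 234.1 and 211.7 CPM in S138A, without overlap, and its log2 fold change was -0.67 in both fits (adjusted p = 0.169 with genotype alone and 0.00398 with the block, edgeR). *Cbx5* had -0.22 with the block (adjusted p = 0.0457). *Suv39h1*, a histone methyltransferase gene, had 0.29 (adjusted p = 0.0969).

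**Figure D5:**
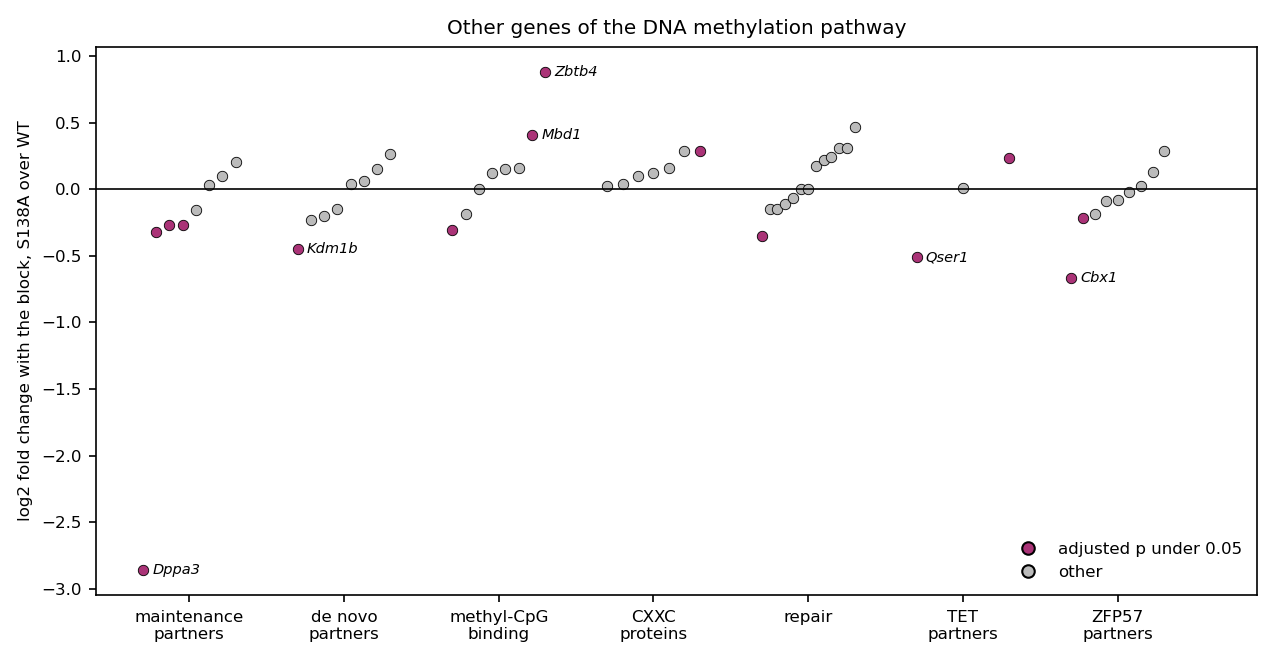
Log2 fold change of S138A over WT with the replicate block for the other genes of the pathway by list (1 point per gene, sorted within a list), purple where the adjusted p is under 0.05. *Dppa3* (-2.86) lies far below the rest, and the other genes lie between -0.67 (*Cbx1*) and 0.88 (*Zbtb4*).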

How the data were processed

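PolyA RNA libraries of 3 wild-type and 3 S138A samples were sequenced. Per the labels, the authors used a kit that keeps strand, made base calls with CASAVA 1.8.4, aligned reads to mm9 with TopHat2 2.0.11 and counted them per gene with featureCounts. The deposited values are these raw counts. The counting settings for strand and multiply mapped reads are not given in the sources used here. ERCC RNA was added and not used here. The study's text describes no test for these data. S138A columns were assigned as a group, the only one other than WT.

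Symbols matched 32897 of 37620 identifiers (87.4%). Counts were analysed in R 4.3.3 with edgeR 4.0.16 (TMM, genes filtered by filterByExpr at 10 counts and a total of 15, quasi-likelihood test, adjusted p under 0.05), limma 3.58.1 and DESeq2 1.42.0, after tests on simulated data. SE is the size of the log2 fold change over the square root of F. The genes and lists were chosen with earlier results of these data known. Named genes were all 10, Ube2d3, ESC markers, and up to 3 of each list by smallest p. Outside this rule *Hells* and some genes of the cell type lists, such as *Fn1*, *Dcn*, *Lum*, *Col1a2*, *Dab2* and *Pou3f1*, were also named. The result of 1 gene of a list is not reported here. The final digit of column names was taken to pair libraries because deviations from the group means correlated at 0.53, 0.493 and 0.753. Crossing 1 and 2 gave 0.526 and 0.515, so those cannot be told apart, and no stated design gives the pairing. Alternatives were RLE factors, no filter, DESeq2, limma-voom, each library left out, the block, a term for WT 3 and S138A C, and the other 4 libraries alone. Exons of *Dnmt3a*, *Dnmt3l*, *Tet2* and *Tdg* overlap genes on the opposite strand. Coordinates and lengths are of GRCm38, not the build of the counts. Depth was 33227593 to 37169770 counts a library. Since squared differences between WT 1 and WT 2 were a median 2.41 times the sampling noise, counting error was a large share of the spread between the most alike libraries.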

Additional observations from a re-analysis of the deposited data

How the results depend on the processing

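*Dnmt1*, *Dnmt3b*, *Tet1* and *Tet3* kept their direction in 13 of 13 alternatives. *Dnmt3b* ranged from -0.54 without WT 3 to -0.1 without S138A C (adjusted p from 0.00583 to 0.914 over all alternatives), and *Tet3* from 0.32 without S138A C to 0.55 without WT 3 (0.00388 to 0.678). Counts of called genes moved with the treatment of WT 3 and S138A C: from 0 of all genes to 3180 with the replicate block, 4418 with the term and 4756 in 4 libraries. They were 4 with no filter, 797 with DESeq2 and 0 to 79 with a library left out (79 without S138A C). Of the 10 methylation genes, 2 were called with the replicate block, 2 with the term and 3 in 4 libraries. Of the 55 other pathway genes, 14, 22 and 18 were called in those fits, 1 with no filter, 5 with DESeq2 and 0 to 1 with a library left out (1 without S138A C). RLE factors and limma-voom called 0 in all 3 sets.

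Genes near 0 changed sign. *Dnmt3a* came to 0 with no filter. With a library left out the log2 fold changes were -0.07 to 0.09 for *Dnmt3a*, -0.36 to 0.26 for *Dnmt3l*, -0.08 to 0.01 for *Uhrf1*, -0.21 to 0.28 for *Tet2*, -0.03 to 0.1 for *Tdg* and -0.26 to 0.07 for *Zfp57*. The log2 difference of the *Dnmt3l* to *Dnmt3a* ratio was -0.41 to 0.25 and that of *Tet1* to *Tet2* -0.47 to 0.06. The cause of these changes was not tested. The block changed no other call among the 10 genes. With 3 libraries a group, the interval of *Dnmt3l* without the block ran from -1.08 to 0.95, so a smaller difference was not detectable there.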

Other observations

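Supply of the methyl donor S-adenosylmethionine was read from 11 genes of the methionine and one-carbon cycles. With genotype alone edgeR called 0, and DESeq2 called 1 lower, *Shmt1* (adjusted p = 0.00701, DESeq2). With the replicate block 1 rose and 3 fell, beside 10.7% and 9.13% of all genes tested. *Shmt1*, which feeds the folate cycle, read 142, 156.3 and 144.2 CPM in WT and 99.2, 116.3 and 90.1 CPM in S138A (log2 fold change with the block -0.54, adjusted p = 0.00861, edgeR). *Mat2b*, the regulatory subunit gene of methionine adenosyltransferase, read 118.1, 118.7 and 107.2 CPM in WT and 90.8, 86.8 and 64.4 CPM in S138A (-0.52, adjusted p = 0.0115). *Mtrr*, a gene that keeps methionine synthase active, had -0.48 (adjusted p = 0.0365).

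Of 14 germline genes whose promoters are methylated in somatic cells, 1 rose and 0 fell with the block, beside 10.7% and 9.13% of all genes tested. Their median log2 fold change was 0.21 with genotype alone, beside 0.02 over all genes tested. *Taf7l* read 5.81, 5.57 and 6.5 CPM in WT and 10.4, 8.67 and 8.22 CPM in S138A (0.6 with the block, adjusted p = 0.0253, edgeR). *Hormad1* (-0.43, adjusted p = 0.0611) and *Tex101* (0.55, adjusted p = 0.0866) did not pass. DNA methylation itself was not measured in these samples.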
